A study of Mus musculus with 5 samples.

Results

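The receptors described here are *Olfr78*, *Olfr558* and *Olfr560*, which belong to the olfactory receptor (*Olfr*) family, and *Mrgprf*, a member of the Mas-related G protein-coupled receptor (*Mrgpr*) family. They are 4 of the 32286 features counted in the mouse synovial sarcoma (SyS) libraries, in which 1135 features carried an *Olfr* name and 20 an *Mrgpr* name. They had been selected on their UMI levels in stromal against tumor cells of these same libraries, high in the former and near 0 in the latter, so every difference between mural and tumor cells below is a description without a test. All 3 *Olfr* genes and *Mrgprf* lie on chromosome 7.

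Tumors came from *hSS2* mice, which carry the human *SS18::SSX2* fusion at *Rosa26* and express it once TATCre protein has been injected into the limb. That injection is not limited to 1 cell type, all 5 tumors shared the fusion and the injection, and no tumor-free tissue was analysed here. Tumors were harvested at morbidity and dissociated, and each gave 1 droplet-based 3′ library counted in unique molecular identifiers (UMIs, 1 for each captured RNA molecule). The labels gave the histology as BP for 2 tumors (biphasic, with glandular structures) and as MP (monophasic), MP+BP or PD+MP (PD, poorly differentiated) for 1 tumor each, and the names of both BP tumors began with the same number. Groups of 1 tumor had no replicate. After filtering, 39559 of 51670 cells were kept, 6328 to 9486 per tumor, from libraries of 89996321 to 118649103 UMIs. Between 83 and 107 barcodes of each tumor also occurred in another tumor, and 4 of the gated cells below had such a barcode.

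Mural cells are the pericytes of capillaries and the smooth muscle cells of larger vessels, and they set the width of the vessel by contracting around the endothelium. Olfactory receptors are G protein-coupled receptors best known from sensory neurons of the nose, where they signal through the G protein Gnal, the adenylyl cyclase Adcy3 and cyclic nucleotide-gated channels. *Olfr78* and *Olfr558* are known outside the nose, in vascular smooth muscle among other cells, and respond to short-chain fatty acids. *Mrgprf* is an orphan receptor, whose relatives are best known from sensory neurons of the skin.

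The 3 *Olfr* genes are neighbors with distinct coding sequences. In the GRCm38 annotation (GENCODE M21), *Olfr558* (ENSMUSG00000070423) occupied chr7:102702215-102712064 on the plus strand and *Olfr78* (ENSMUSG00000043366) chr7:102738511-102759471 on the minus strand, 26447 bases further on. *Olfr560* (ENSMUSG00000110008), at chr7:102751818-102759366 on the minus strand, lay entirely within the span of *Olfr78*. *Mrgprf* (ENSMUSG00000031070) was 42541357 bases away, at chr7:145300828-145309557 on the plus strand. Coding sequences were 63.2% identical between *Olfr78* and *Olfr558*, 59.0% between *Olfr78* and *Olfr560* and 59.2% between *Olfr558* and *Olfr560*, and 43.5% to 46.4% between *Mrgprf* and the others. The most conserved stretch without gaps is printed to show how far the 3 genes can be told apart by a read, with capitals for the 48 of 75 bases that all 3 shared. It lay at chr7:102742603-102742677 (minus strand, coding exon) in *Olfr78*, at chr7:102709594-102709668 (plus strand, coding exon) in *Olfr558* and at chr7:102753520-102753594 (minus strand, coding exon) in *Olfr560*.
Olfr78: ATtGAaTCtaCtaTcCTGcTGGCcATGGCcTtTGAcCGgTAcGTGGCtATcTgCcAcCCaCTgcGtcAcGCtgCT
Olfr558: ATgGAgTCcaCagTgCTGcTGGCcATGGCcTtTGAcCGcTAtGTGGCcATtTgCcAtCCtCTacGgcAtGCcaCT
Olfr560: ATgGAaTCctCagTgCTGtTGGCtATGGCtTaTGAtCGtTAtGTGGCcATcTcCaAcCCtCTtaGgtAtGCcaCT
The longest run of bases that *Olfr78* and *Olfr558* shared anywhere in their transcripts was 23, shorter than the 90 bases read from each molecule.

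*Olfr78* and *Olfr560* are a different case, because their annotated exons overlap on the same strand. They shared 926 exonic bases, in a run of 869 (chr7:102752265-102753133, an internal exon of *Olfr78* and part of the exon that holds the *Olfr560* coding sequence) and a run of 57 (chr7:102759310-102759366, the first exon of both). That is 42.7% of the exonic bases of *Olfr560* and 15.3% of those of *Olfr78*. Cell Ranger counts a read that fits the exons of both genes for neither, so values of both genes are lower limits there. The 3′ ends, which this chemistry reads, were 13307 bases apart. All 1242 exonic bases of *Olfr560* outside the shared runs lay within introns of *Olfr78*, including the stretch printed above. The last 447 bases of *Olfr560* (chr7:102751818-102752264), at its 3′ end, were among them. Any read counted for *Olfr560* could therefore also stem from unspliced *Olfr78* RNA, and the 2 sources cannot be told apart in these counts. *Olfr558* overlapped only *Gm45688*, a pseudogene of 101 bases on the other strand that was not among the counted features, and no other gene overlapped *Mrgprf*.

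**Figure D1:**
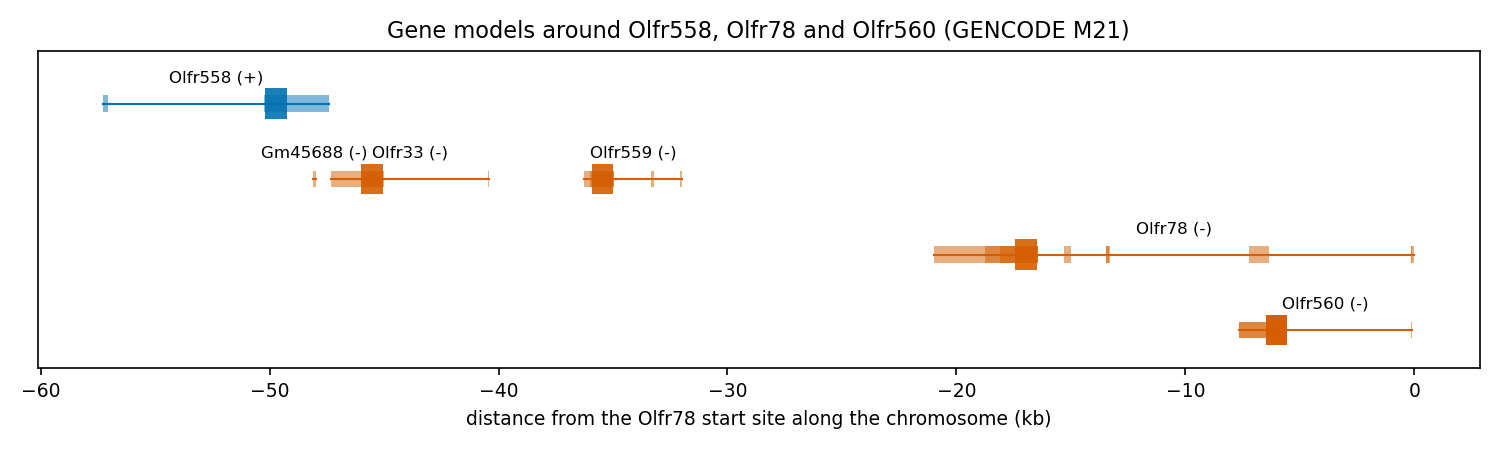
Annotated gene models around the 3 *Olfr* genes, drawn to scale against the distance from the *Olfr78* start site (kb), with thin lines for gene spans, boxes for exons, tall boxes for coding exons, blue for the plus and orange for the minus strand. *Olfr560* lies within the span of *Olfr78*, and their 3′ ends are 13307 bases apart.

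Mural cells were first taken by a gate, at least 2 UMIs of *Rgs5*, *Notch3* and *Kcnj8* together and none of *Cdh5*, the cadherin of endothelial junctions. *Rgs5*, a regulator of G protein signaling, and *Kcnj8*, a potassium channel subunit, mark pericytes, whereas *Notch3* is a Notch receptor of mural cells that other cells also use. The gate took 3676 cells, 9.29% of those kept, but most of them were not mural by their other genes. Of the gated cells, 2269 (61.7%) fell in clusters that carried the SyS markers and 1202 (32.7%) in the 1 cluster that carried the pericyte markers. Of the 2269 SyS-like cells, 1740 passed through *Notch3* alone. The median depth of all 2269 was 25723 UMIs, above the 9479 of SyS-like cells outside the gate.

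Clusters were built without the 4 receptors. The pericyte-like cluster was named by 12 pericyte markers, which include the gate genes *Rgs5*, *Notch3* and *Kcnj8* and also *Pdgfrb*, *Higd1b* and *Acta2*. Levels of these markers therefore describe the cells and do not test the label of mural cells. All 12 were detected in gated cells of this cluster, at 20170 CPM together (UMIs of a gene per 1000000 UMIs of the summed cells). *Rgs5* alone gave 12590 CPM of this sum. In gated SyS-like cells the 12 markers summed to 189 CPM. *Pdgfrb*, the growth factor receptor of pericytes, was at 711 ± 72.4 CPM (SD, n = 5 tumors), *Higd1b* at 1168 ± 107 CPM and *Acta2*, smooth muscle actin, at 1899 ± 1048 CPM. *EGFP*, the reporter counted in the libraries, was at 0.891 ± 1.03 CPM there and at 38.1 ± 4.42 CPM in gated SyS-like cells. The gate held 97.0% of the cells in the pericyte-like cluster, so values are given below both for all gated cells and for the pericyte-like gated cells, of which the BP tumors gave 246 (replicate 1) and 171 (replicate 2), MP gave 514, MP+BP gave 233 and PD+MP gave 38. Of the 10 genes that led the pericyte-like cluster, 1 was *Olfr558*.

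**Figure D2:**
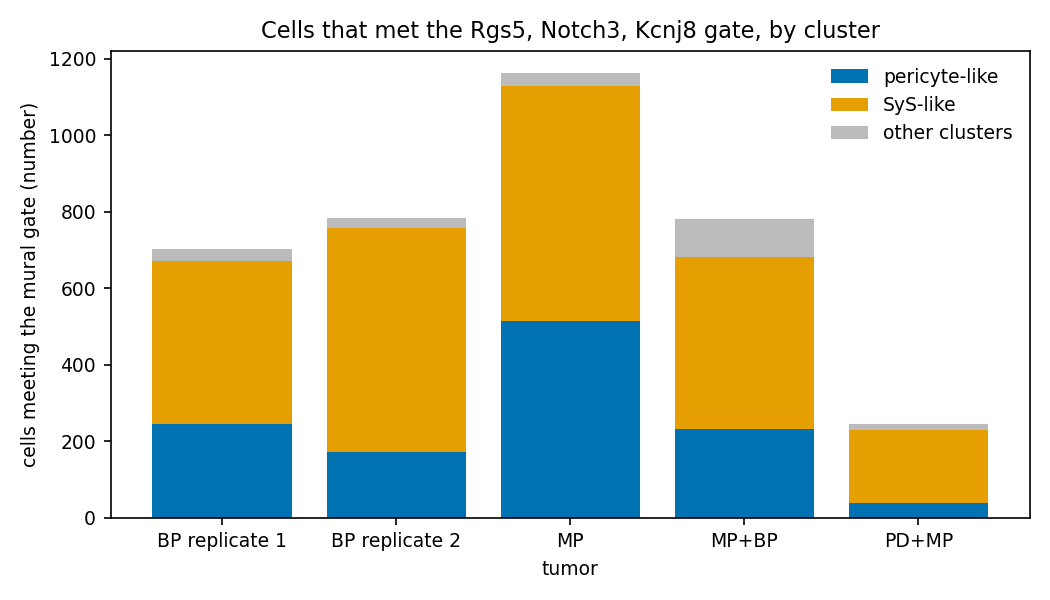
Number of cells that met the mural gate in each tumor, stacked by cluster. SyS-like cells (orange) outnumbered pericyte-like cells (blue) in all 5 tumors, and 38 pericyte-like gated cells came from PD+MP.

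*Olfr558* was the only one of the 4 receptors found in a large share of pericyte-like cells. Its level was 133 and 192 CPM in the BP tumors (replicates 1 and 2), 210 CPM for MP, 208 CPM for MP+BP and 169 CPM for PD+MP, a mean of 182 ± 32.1 CPM (SD, n = 5 tumors). The lowest and highest tumor differed by less than 2 times, which no other receptor of the 4 matched. At least 1 UMI was seen in 556 of 1202 cells (46.3%, 95% Clopper-Pearson interval 43.4 to 49.1%, counting error only), and in 39.0% of the 839 cells with enough depth once each was thinned to 3000 UMIs. Of the positive cells, 302 held 1 UMI, 138 held 2 and 54 held 3, and the highest count in a cell was 9.

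*Olfr78*, *Olfr560* and *Mrgprf* were rare. *Olfr78* was at 6.49 and 6.06 CPM in the BP tumors, 6.81 CPM for MP, 10.0 CPM for MP+BP and 31.4 CPM for PD+MP, from 46 UMIs in 34 of 1202 cells (2.83%). The PD+MP value rested on 8 UMIs in 38 cells, with a 95% counting interval of 13.5 to 61.8 CPM, which did not overlap the 4.04 to 10.8 CPM of MP but did overlap the 4.33 to 19.8 CPM of MP+BP.

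*Olfr560* was at 1.62, 4.54, 2.65, 1.25 and 11.8 CPM in the same order of tumors, from 16 UMIs in 12 cells. *Mrgprf* was at 0.811, 1.51, 7.57, 5.02 and 3.92 CPM, from 27 UMIs in 26 cells, and 20 of these UMIs came from MP. For both genes the counting intervals of tumors adjacent in level overlapped. Between the lowest and the highest tumor they overlapped for *Olfr560* but not for *Mrgprf* (BP replicate 1 and MP). Levels of the 4 genes are in CPM of 3′ counts and carry no length correction.

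Nearly all UMIs of the *Olfr* genes in the whole series lay in these cells. The pericyte-like gated cells were 1202 of 39559 kept cells and held 46 of 48 *Olfr78* UMIs (95.8%), all 16 of *Olfr560*, 1054 of 1251 of *Olfr558* (84.3%) and 27 of 40 of *Mrgprf*. Ungated pericyte-like cells held 26 further UMIs of *Olfr558*. The remaining *Olfr558* UMIs were mainly endothelial-like, 139 in all, with 13 in ungated and 12 in gated SyS-like cells.

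Against ungated SyS-like cells, the contrast behind the choice of these genes, *Olfr558* had 189 CPM in the pericyte-like gated cells of all tumors together and 0.0448 CPM (13 UMIs in 23382 cells). *Olfr78* and *Olfr560* had no UMI among the 290332084 of these SyS-like cells, which allows up to 0.0103 CPM for a count of 3, and *Mrgprf* had 1.

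**Figure D3:**
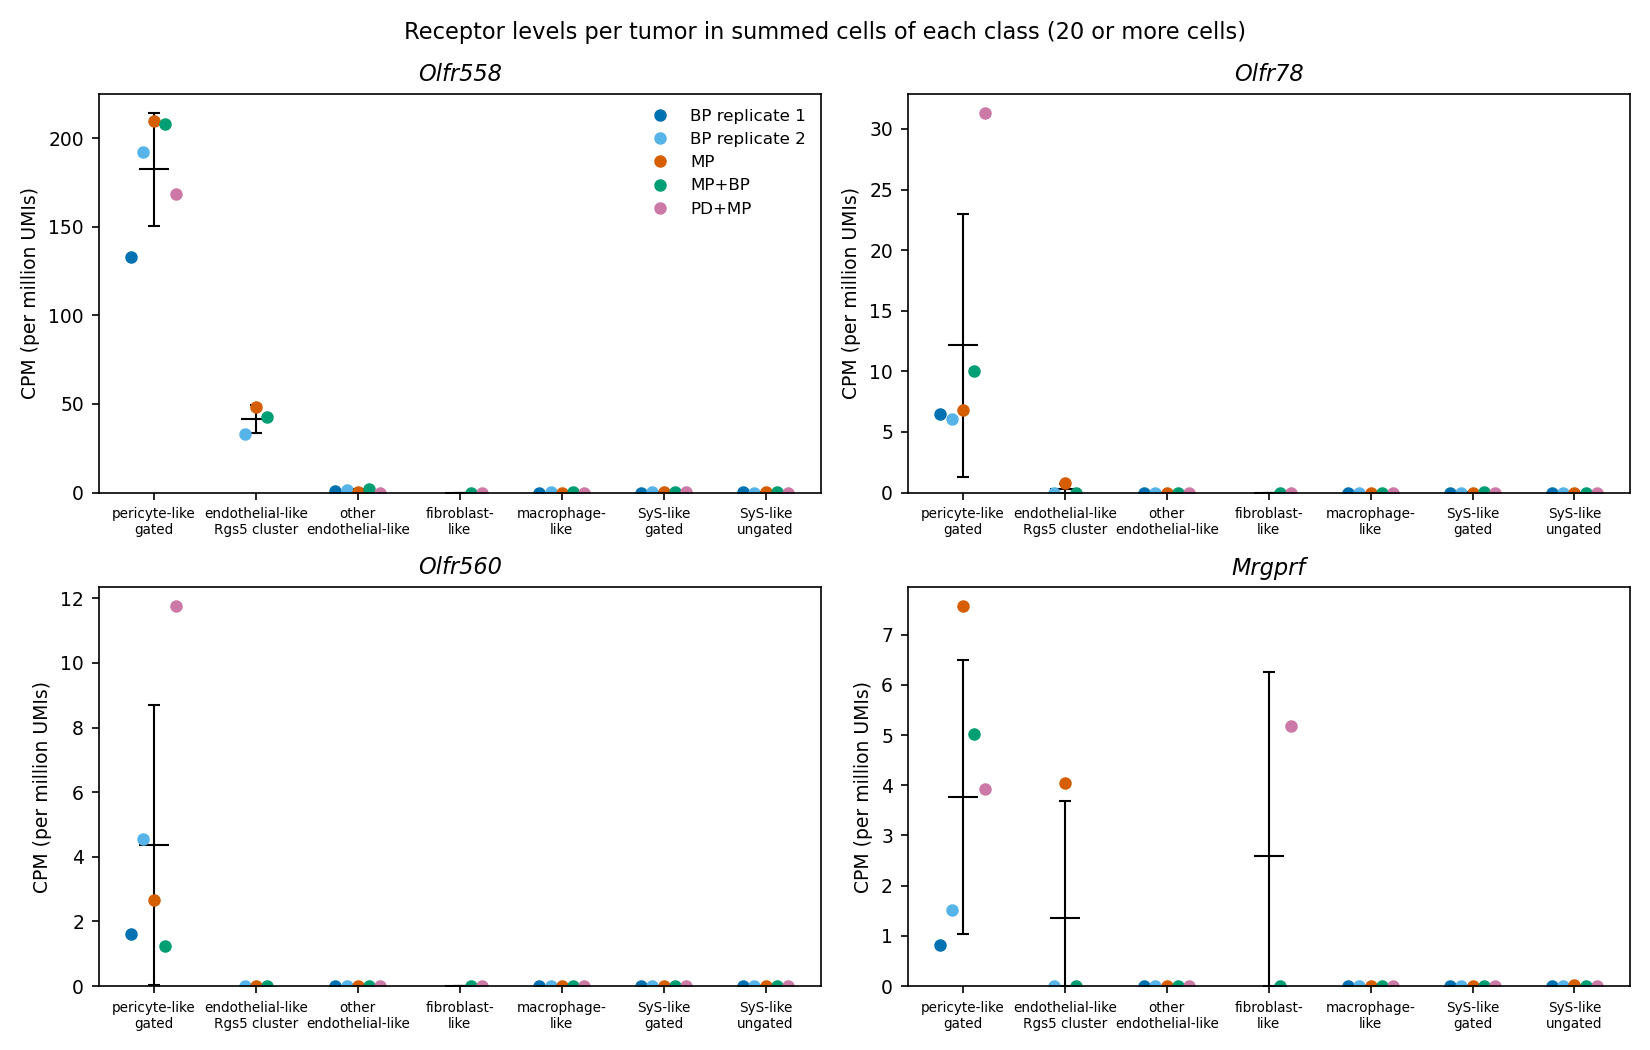
Level of each receptor in CPM for summed cells of each class with 20 or more cells per tumor; points are tumors, horizontal marks the mean and bars the SD, cut at 0. *Olfr558* was between 133 and 210 CPM in pericyte-like gated cells and intermediate in the endothelial-like cluster with *Rgs5*, and *Mrgprf* also appeared in fibroblast-like cells of PD+MP.

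To ask how far the receptors separate mural from endothelial cells, UMIs were summed per tumor and cell class and compared with edgeR's quasi-likelihood test with tumor as a block, with Benjamini-Hochberg adjusted p-values over all genes tested. The mural arm shares its cells with the stromal cells on which the genes were selected, so its height there is not independent of that choice. In all gated cells *Olfr558* was at 9.36, 8.17, 23.1, 10.6 and 8.01 CPM in BP replicate 1, BP replicate 2, MP, MP+BP and PD+MP. In endothelial-like cells it was at 2.91, 5.85, 10.7, 9.95 and 15.5 CPM. The order was reversed in PD+MP, and the log2 fold change over all tumors was 0.25 ± 0.32 (SE, adjusted p = 0.528 in edgeR's test). In this comparison 56.9% of 14240 genes passed the threshold of 0.05, 4324 higher and 3785 lower (6599 and 2634 without TMM scaling, which moved the median of all genes from 0.08 to 0.42 and *Olfr558* to 0.60), and the other 3 receptors were too low to be tested.

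Restricted to pericyte-like gated cells, the same test gave a log2 fold change of 4.64 ± 0.20 for *Olfr558* (adjusted p = 2.46e-10), against 47.1% of 10869 genes called in this comparison. *Olfr558* was higher in pericyte-like gated than in endothelial-like cells in 5 of 5 tumors. These cells held 1054 of its 1251 UMIs and belong to the stromal cells on which the genes were selected. Neither the p-value nor the count of tumors is therefore independent of that choice. *Olfr558* was also below 10 counts in some endothelial-like sums, so its place in the fit leaned on the mural arm too. The other 3 receptors were near or at 0 in endothelial-like cells and could be kept for a fit only through the mural arm, so they are described without a test. *Olfr78* had 1 UMI in 2445 endothelial-like cells, a ratio of levels of 149 with a 95% counting interval of 25.5 to 6020. *Olfr560* had none there, so it was at least 17.3-fold higher in pericyte-like gated cells (against a floor of 3 counts over the group). *Mrgprf* had 6, a ratio of 14.6 (5.90 to 43.2).

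The endothelial-like UMIs of these receptors came mostly from 1 cluster of 144 cells that had *Rgs5* among its leading genes beside the endothelial markers. It held 124 of the 139 endothelial-like *Olfr558* UMIs, all 6 of *Mrgprf* and the 1 of *Olfr78*. Its median depth was 17288 UMIs, and the 12 pericyte markers summed to 6670 CPM (5940 to 7820 over tumors), against 20200 CPM in pericyte-like gated cells (18000 to 24300) and 227 CPM in other endothelial-like cells (109 to 366). Its 10 endothelial markers summed to 6840 CPM, and to 482 CPM in pericyte-like gated cells. *Olfr558* stood at 44.8 CPM in this cluster and at 0.977 CPM in the 2301 other endothelial-like cells. Whether its barcodes held 1 cell each was not tested.

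Without that cluster, the fitted log2 fold change of *Olfr558* in all gated cells was 3.23 ± 0.54. The cluster was left out after its *Olfr558* level had been seen, so this value carries no test. Pooled over tumors, its level in pericyte-like gated cells was then 193 times that of the remaining endothelial-like cells (counting interval 117 to 346).

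**Figure D4:**
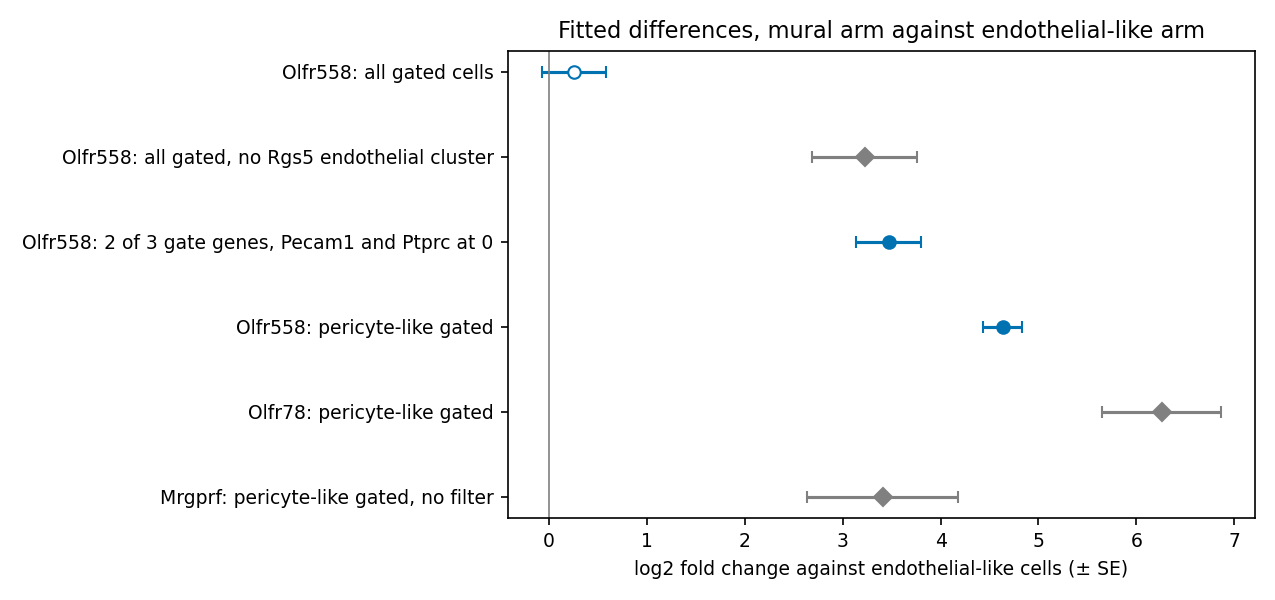
Fitted log2 fold changes against endothelial-like cells with SE bars; circles were tested and are filled where the adjusted p was under 0.05, and grey diamonds are descriptions without a test. *Olfr558* stood at 0.25 in all gated cells, at 3.23 once the endothelial-like cluster with *Rgs5* was left out, and at 4.64 in pericyte-like gated cells.

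Fibroblast-like cells were too few for a test, since only MP+BP and PD+MP held 20 or more. Over all tumors 153 ungated fibroblast-like cells had no UMI of *Olfr558*, *Olfr78* or *Olfr560*. For *Olfr558* this puts pericyte-like gated cells at least 74.4-fold higher, for *Olfr78* at least 3.25-fold and for *Olfr560* at least 1.13-fold (floor of 3 counts over the group). A lack of the latter 2 genes in fibroblast-like cells is therefore not shown at this depth.

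*Mrgprf* differed from the *Olfr* genes here. It had 5 UMIs in 5 of 116 fibroblast-like cells of PD+MP, which is 5.18 CPM (1.68 to 12.1), beside 3.92 CPM from 1 UMI in the pericyte-like gated cells of the same tumor. Pooled, the ratio of pericyte-like to fibroblast-like cells was 1.14 with an interval of 0.434 to 3.80. These counts do not separate the 2 cell types for *Mrgprf*.

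Detection of 1 receptor was compared with that of another in the same cell. Cells of all tumors were pooled, so the intervals cover counting error only and not differences between tumors. *Olfr558* was found in 26 of 34 pericyte-like gated cells with *Olfr78* (76.5%, 95% interval 58.8 to 89.3%) and in 530 of 1168 cells without it (45.4%, 42.5 to 48.3%). *Olfr78*-positive cells were deeper, at a median of 5629 against 3974 UMIs, and the part of depth in this difference was not tested. *Olfr560*-positive cells held *Olfr558* in 10 of 12 cases and *Olfr78* in 3 of 12. *Mrgprf*-positive cells held *Olfr558* in 15 of 26 cases (57.7%, 36.9 to 76.6%), and their interval spans the 46.0% of cells without *Mrgprf*. Most cells with an *Olfr560* UMI thus had no *Olfr78* UMI, at levels where a UMI of either is rare.

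Mural cells range from contractile smooth muscle to pericytes, so pericyte-like gated cells with at least 2 UMIs of *Myh11*, *Cnn1*, *Actg2* and *Lmod1*, genes of the contractile apparatus, were set against those with none. There were 195 contractile cells (median 5862 UMIs) and 763 non-contractile cells (median 3693 UMIs). *Olfr558* was at 123, 219, 245, 303 and 196 CPM in contractile cells of BP replicate 1, BP replicate 2, MP, MP+BP and PD+MP. In non-contractile cells it was at 153, 180, 194, 158 and 131 CPM, so BP replicate 1 ran against the other 4 tumors. Over the 4 tumors with 20 or more cells of both kinds, the log2 fold change was 0.28 ± 0.17 (adjusted p = 0.665 in edgeR's test, 1.54% of 6359 genes called). *Olfr558* was thus present in both kinds of cell, and a difference between them was not resolved.

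*Olfr78* was concentrated in the contractile cells. It had 29 UMIs in 18 of 195 contractile cells, or 22.7 CPM (15.2 to 32.6), and 8 UMIs in 7 of 763 non-contractile cells, or 2.56 CPM (1.10 to 5.03). Per tumor it was at 8.22, 38.1, 19.7, 35.6 and 69.3 CPM in contractile cells and at 6.20, 0, 2.15, 1.84 and 0 CPM in non-contractile cells. The contractile value was higher in 5 of 5 tumors, but some of these values rest on few UMIs. In BP replicate 1 there were 3 UMIs in contractile and 4 in non-contractile cells, with overlapping intervals (1.70 to 24.0 and 1.69 to 15.9 CPM). In PD+MP there were 6 UMIs in 3 of 11 contractile cells and 0 in 20 non-contractile cells (up to 32.1 CPM). PD+MP had too few contractile cells for the fit. The gene was too low for the count filter. Fitted without it, the change was 2.75 ± 0.65 on the log2 scale (adjusted p = 0.00434 in edgeR's test, with 1.01% of 19434 genes called). Leaving out 1 tumor kept the direction, at 2.38 to 3.69.

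*Olfr560* had 7 UMIs in contractile and 3 in non-contractile cells, at 5.48 CPM (2.20 to 11.3) and 0.958 CPM (0.198 to 2.80), with overlapping intervals. The same unfiltered fit, again without a test, gave 1.51 ± 1.65 on the log2 scale. *Mrgprf* was at 3.92 CPM in contractile and 4.79 CPM in non-contractile cells, with widely overlapping intervals.

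In all gated cells *Olfr558* passed the test for this split, at 0.90 ± 0.16 on the log2 scale (adjusted p = 0.0248, 1.11% of 15180 genes called). Of the contractile gated cells 48.1% were pericyte-like, against 29.7% of the non-contractile ones, and 50.4% against 63.2% were SyS-like. The call was lost without BP replicate 1 (0.96, adjusted p = 0.0656) and without MP (0.67, adjusted p = 0.208).

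**Figure D5:**
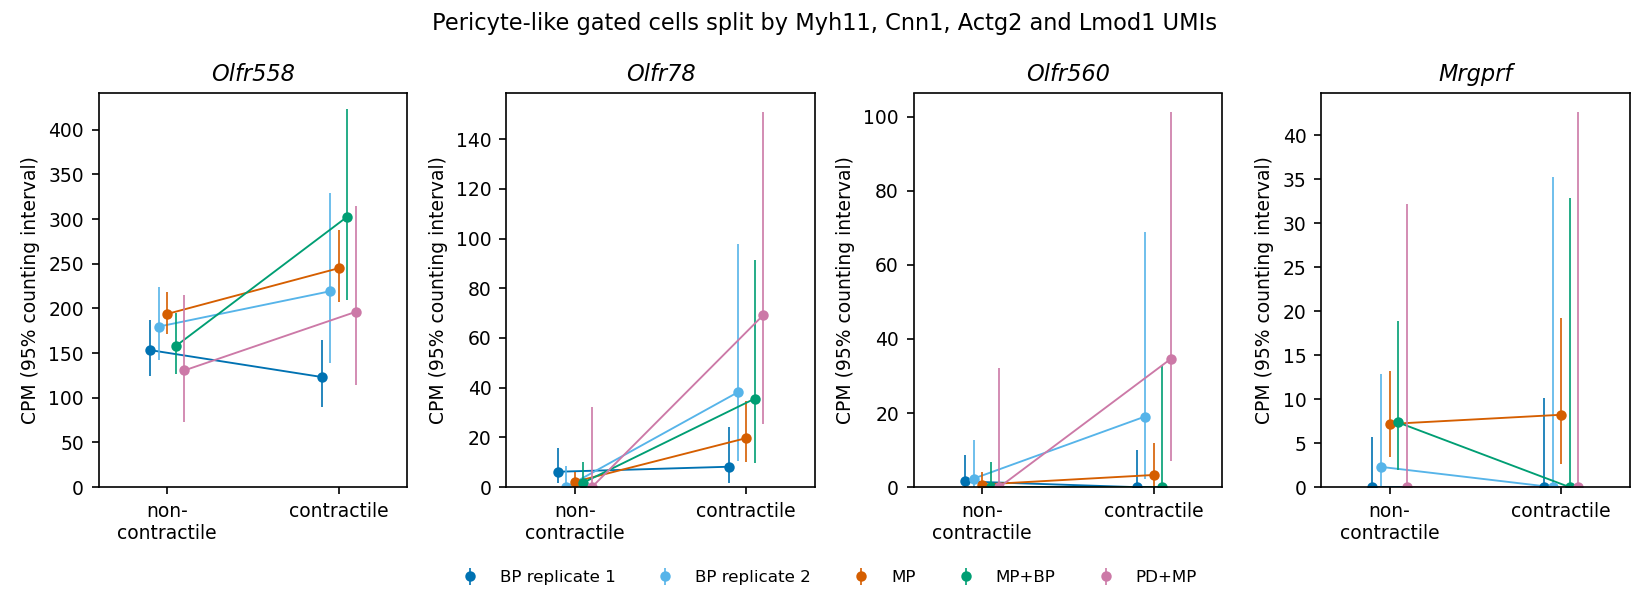
Level of each receptor in CPM in non-contractile and contractile pericyte-like gated cells, 1 line per tumor, with 95% counting intervals. *Olfr78* is higher in contractile cells in all 5 tumors, from 8.22 against 6.20 CPM in BP replicate 1 to 69.3 against 0 CPM in PD+MP. The intervals of BP replicate 1 overlap, and the 69.3 CPM of PD+MP rests on 6 UMIs in 11 cells. *Olfr558* falls between 123 and 303 CPM in both kinds of cell.

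No difference in receptor level between tumor labels was resolved. Between 3 tumors with BP in the label and 2 without, *Olfr558* differed by -0.17 ± 0.26 on the log2 scale in pericyte-like gated cells (adjusted p = 0.908) and by -0.78 ± 0.45 in all gated cells (adjusted p = 0.711), and *Olfr78* by -1.27 ± 0.60 in all gated cells (adjusted p = 0.686). The direction for *Olfr558* turned without MP, to 0.21 in all gated and 0.10 in pericyte-like gated cells, and in the latter also without BP replicate 1, to 0.03. In both comparisons 0% of genes were called by edgeR (of 8488 and of 17760), with 565 and 1286 genes at an unadjusted p under 0.05 and 5 and 199 genes called by DESeq2.

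Genes whose level followed a receptor most closely were sought over 52 sums of a cell class in a tumor. The points share tumors and depth, and the contrast between pericyte-like and all other cells sets most of each correlation. For *Olfr558* they were *Serpina1b* (Pearson r = 0.98), *Npy1r*, a receptor for neuropeptide Y (0.95), *Trpc6*, a cation channel of smooth muscle (0.95), *Gja4*, a gap junction protein (0.94), and *Gm13470* (0.94). *Trpc6* was at 633 ± 171 CPM in pericyte-like gated cells (SD, n = 5 tumors).

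For *Olfr78* the leading genes were *Catsperb* (0.96), *Gm30667* (0.93), *Trarg1* (0.91), *Gcnt4* (0.91) and *H2-M9* (0.91). *Olfr560* shared *Catsperb* (0.90), *Gm30667* (0.90) and *Trarg1* (0.87) with it, beside *Gm45740* (0.88) and *Kcnq3*, a potassium channel subunit (0.86). For *Mrgprf* they were *C1qtnf2* (0.93), *Gm20560* (0.89), *Cyp4b1* (0.87), *Gm30667* (0.85) and *Mustn1* (0.85). *Catsperb*, an accessory subunit of the sperm calcium channel, was at 14.9 ± 10.9 CPM in pericyte-like gated cells and *Cyp4b1*, a cytochrome P450, at 97.5 ± 45.2 CPM.

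The wider *Olfr* family had no higher sum in mural cells than in other stromal or immune cells. Of its 1135 genes 69 had a UMI in pericyte-like gated cells, and the 66 other than the 3 described here held 278 of 1394 *Olfr* UMIs, or 49.7 CPM. The same sum without the 3 genes was 61.7 CPM in endothelial-like, 62.5 in macrophage-like, 74.4 in fibroblast-like and 27.3 in ungated SyS-like cells. Next to *Olfr558* came *Olfr56*, with 79 UMIs (14.1 CPM), which was at 24.9 CPM in endothelial-like cells.

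Within 200 kb of *Olfr78* lay 30 annotated *Olfr* genes, of which 26 were counted and 12 had a UMI in pericyte-like gated cells. Beside *Olfr558*, *Olfr78* and *Olfr560*, the highest was *Olfr33*, with 6 UMIs, whose span begins 87 bases beyond the 3′ end of *Olfr558* on the other strand. *Olfr552* had 51 UMIs in all gated cells and 3 of them in pericyte-like cells. The remaining neighbors had 2 UMIs or fewer in pericyte-like cells.

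Of the *Mrgpr* family 8 of 20 genes had a UMI in pericyte-like gated cells. *Mrgprf* led with 27 of 52 UMIs, and *Mrgpre* followed with 8.

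The signaling genes that serve olfactory receptors in the nose were mostly low or absent in the pericyte-like gated cells. Of 20 listed genes 8 could be tested against endothelial-like cells, of which 2 were higher and 5 lower (47.1% of all genes called), with a median log2 fold change of -0.54 beside -0.01 for all genes. *Adcy3*, the olfactory adenylyl cyclase, rose by 1.96 ± 0.34 on the log2 scale (adjusted p = 2.44e-04) and stood at 32.7 ± 25.2 CPM. *Ano2*, the calcium-activated chloride channel of olfactory cilia, fell by 5.60 ± 0.55 and *Reep1*, a membrane-shaping protein, by 4.71 ± 0.29, as did *Cngb1*, a channel subunit, by 1.67 ± 0.40. *Gnal*, the olfactory G protein, had 2.15 CPM, whereas *Gnas*, its counterpart in most other cells, had 1013 ± 98.2 CPM. In all gated cells 3 of 12 tested genes of the list were higher and 7 lower, where 56.9% of all genes were called (3 and 5 without TMM scaling).

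Receptors for vasoactive ligands gave the scale on which the 4 receptors can be set, as levels in CPM of a 3′ assay. Of 38 listed genes 18 were tested in pericyte-like gated against endothelial-like cells, and 10 were higher and 7 lower (47.1% of all genes called), with a median log2 fold change of 2.47 beside -0.01 for all genes. *Ednra*, the endothelin receptor of smooth muscle, rose by 4.54 ± 0.22, *Agtr1a*, the angiotensin receptor, by 4.51 ± 0.25 and *Npy1r* by 4.48 ± 0.25. *S1pr1*, an endothelial receptor for sphingosine phosphate, had 1 UMI in pericyte-like gated cells and 4104 in endothelial-like cells.

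*Ednra* was at 215.5 ± 52.3 CPM, *S1pr3* at 236 ± 16.0 CPM, *Agtr1a* at 54.1 ± 15.6 CPM and *Adra2a*, an adrenergic receptor, at 151 ± 51.8 CPM in pericyte-like gated cells. The 182 ± 32.1 CPM of *Olfr558* lay within this range, with spreads over tumors that overlap those of *Ednra* and *Adra2a*. *Olfr78* averaged 12.2 ± 10.8 CPM, but 7.35 ± 1.81 CPM without PD+MP (n = 4 tumors), beside 13.3 ± 5.02 CPM for *Adra1b*. In all gated cells 5 of 25 tested receptors were higher and 9 lower, where 56.9% of all genes were called (8 and 9 without TMM scaling).

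The lists of contractile and pericyte genes overlap the markers that named the pericyte-like cluster, so their height there describes the cells and is no result. Against endothelial-like cells the median log2 fold change was 4.22 over 12 contractile genes and 3.94 over 12 pericyte genes. Within the contractile split, where 1.54% of all genes were called, 3 of 7 tested contractile genes were higher. *Tagln* rose by 2.74 ± 0.22, *Tpm2* by 1.30 ± 0.16 and *Myl9* by 1.22 ± 0.19. Of 12 tested pericyte genes 2 were lower, *Steap4* by -0.79 ± 0.17 and *Abcc9*, the partner of Kcnj8 in its channel, by -0.61 ± 0.12. In all gated cells, most of them SyS-like, none of the 12 pericyte genes was called higher against endothelial-like cells and 3 were lower, where 56.9% of all genes were called (1 and 2 without TMM scaling). In the split no gene of the olfactory transduction list (0 of 3) and none of the vasoactive receptors (0 of 11) was called by edgeR.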

How the data were processed

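The 5 *hSS2* tumors were profiled with a 3′ droplet kit. Per the file headers, the deposited files hold unscaled UMI counts, a gene by cell matrix for each tumor, from the filtered output of Cell Ranger 7.2.0, and the submitters' processing notes name genome build mm10. The reference release and intron setting are not given in the sources used here. The authors' counts carry no normalization and no correction for ambient RNA.

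Cells with at least 750 genes and at most 25% mitochondrial UMIs were kept, and the highest doublet scores (scanpy 1.11.5), up to the share expected from loading (5.35% to 8.27%), were removed. Cells were clustered (30 components, 20 neighbors, Leiden resolution 1) without the 4 receptors, the gene lists, all *Olfr* and *Mrgpr* genes, and clusters were named by marker genes. Sums of at least 20 cells were tested with edgeR 4.0.16 (quasi-likelihood, TMM, filterByExpr, Benjamini-Hochberg, 0.05), which was tested on simulated data. DESeq2 1.42.0 was an alternative. Gate and split genes were left out of counts of called genes. Coding sequences were aligned with MAFFT 7.526. Floors use 3 counts, and intervals cover counting error only. Values are not tied to separate animals in the labels, so p-values measure spread between these tumors.

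The receptors and gene lists were chosen with earlier results of these data known. Genes named are the receptors, overlapping and neighboring *Olfr* genes within 200 kb, the 5 genes closest to each receptor by Pearson correlation of log2(CPM + 1) among genes with at least 50 UMIs in gated cells, and up to 4 genes of each list (largest change called, else highest level). *Adra1b*, *S1pr3*, *Adra2a*, *Gnal* and *Gnas* were named after their values were seen.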

Additional observations from a re-analysis of the deposited data

Results flagged for a closer look

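Each receptor was examined over the 5 tumors, which carry different labels, in 3 kinds of cell, and 5 of 11 sets had a tumor whose gap to the nearest other exceeded Dixon's 95% limit for 5 samples. Chance flags about 1 in 20 sets of continuous values, a rate that does not hold for sets of a few UMIs. *Olfr78* in pericyte-like gated cells of PD+MP stood apart at 31.4 CPM, from 8 UMIs. *Olfr558* in all gated cells of MP stood apart at 23.1 CPM, and *Mrgprf* in the same cells at 0.827 CPM. Pericyte-like cells were 514 of 1163 gated cells in MP. In endothelial-like cells of MP, *Mrgprf* stood apart at 0.873 CPM, from 5 UMIs, and *Olfr78* at 0.175 CPM, from 1 UMI with none in the other tumors, a pattern that always exceeds the limit.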

How the results depend on the processing

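Over 23 results, 163 recomputed values kept their direction and call or stayed within 1.5 times or 1 SD, 38 counts or levels moved further, 10 calls were lost, 3 were gained and 7 uncalled differences turned direction. Of the lost calls, 3 were of *Olfr78* in the unfiltered fit of the contractile split, which is described without a test. Requiring 2 of the 3 gate genes, with *Cdh5*, *Pecam1* and *Ptprc* at 0, raised mean levels from 0.688 to 4.73 CPM for *Olfr78*, 11.9 to 93.1 for *Olfr558*, 0.238 to 1.00 for *Olfr560* and 0.275 to 2.32 for *Mrgprf*, and pericyte-like gated cells gave 12.2, 182, 4.37 and 3.77 CPM. Without PD+MP the latter were 7.35 for *Olfr78* and 2.52 for *Olfr560*, and *Mrgprf* in all gated cells was 0.137 without MP. The mural arm still shared its cells with the stromal cells behind the choice of genes, so a pass there is not independent of it. *Olfr558* against endothelial-like cells then passed at 3.47 (stricter gate, adjusted p = 1.34e-05 in edgeR's test) and 4.64 (pericyte-like gated cells). It was 3.23 without the endothelial-like cluster with *Rgs5*, a value with no test, since that alternative was chosen after seeing the data, as were the further settings tried within pericyte-like gated cells. In all gated cells its change was -0.047 with doublets kept, -0.10 at 1500 genes or more and -0.014 to 0.45 without 1 tumor (lowest without BP replicate 1), never called.

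Called genes against endothelial-like cells were 4185 with at least 10 counts in every sum and 5122 in pericyte-like gated cells, against 8109, and 2117 against 5122 in pericyte-like gated cells with at least 10 counts. *Olfr558* could not be fitted under that minimum, since it was below it in some sums.

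For the contractile split of all gated cells, *Olfr558* was no longer called with the stricter gate (0.92, adjusted p = 0.168), in pericyte-like gated cells (0.28), with doublets kept (1.11), without the tumor block (0.97), with a split on *Acta2* and *Myh11* (3.57), without BP replicate 1 (0.96) or without MP (0.67). It stayed called without BP replicate 2 or MP+BP, and ranged from 0.67 to 0.99 without 1 tumor. Its adjusted p by DESeq2 was not given. The number of called genes, 168, became 256 without scaling, 1241 without a filter, 24 with the stricter gate, 98 in pericyte-like gated cells, 71 with doublets kept, 372 at 1500 genes or more, 0 without the block, 0 with the *Acta2* and *Myh11* split and 30 to 220 without 1 tumor. Without scaling 205 were higher and 51 lower, and by DESeq2 67 and 173, against 102 and 66. Within pericyte-like gated cells 98 (73 higher and 25 lower) became 40 by DESeq2 (36 and 4), 196 without a filter, 57 with at least 10 counts, 7 without the block, 465 with the other split and 45 to 61 without 1 tumor.

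Between tumor labels, the difference of *Olfr558* was 0.0060 with the stricter gate, -1.35 to 0.21 without 1 tumor and -0.33 to 0.10 in pericyte-like gated cells without 1 tumor, never called. DESeq2 called 199 genes in all gated cells and 5 in pericyte-like ones, no filter gave 134 in the latter, and leaving out 1 tumor gave 0 to 70 and 0 to 17. The cause was not tested. Between tumor labels no paired analysis was possible, because each tumor carries only 1 label. Depth limits *Olfr560* and *Mrgprf* most, with 16 and 27 UMIs.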
